A study of Mus musculus with 8 samples.

Results

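The immediate early genes described here were Fos, Fosb, Jun, Junb, Egr1, Egr2, Ier2, Atf3, Nr4a1 and Zfp36, 10 genes taken by name from a list of immediate early genes. All 10 had a probe set among the 21212 probe sets of the arrays. The RNA came from gastrocnemius and plantaris muscles of female C57BL/6J mice aged 7 weeks, all wild type and housed singly. For 4 samples the hind limbs had been held off the floor of the cage for 5 days (hind limb unloading, which causes disuse atrophy). The other 4 samples came from mice that bore weight on all limbs throughout. The muscles were taken under anaesthesia and snap frozen. Each RNA sample was measured on its own Affymetrix Mouse Gene 1.0 ST array, and the labels call the samples biological replicates. Whether each sample came from a single mouse is not stated. Values are log2 expression, a change is the mean of the unloaded arrays minus the mean of the weight bearing arrays, and the word called stands for an adjusted p under 0.05 in limma, with adjustment over all probe sets.

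Immediate early genes are switched on within minutes of a stimulus, without new protein synthesis, by factors that already sit in the nucleus, chiefly serum response factor with its cofactors and CREB, which MAP kinases and calcium signals activate. Most of their products are transcription factors that pass the signal on to slower genes. Their mRNAs decay quickly, so that a level reflects recent activity, and in muscle they are known to respond to contraction, stretch and injury. Zfp36 (tristetraprolin) is a member that is not a transcription factor: it binds AU-rich elements of mRNAs and speeds their decay.

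After 5 days of unloading 4 of the 10 members were lower and 0 were higher. The 4 were Egr1, Zfp36, Atf3 and Nr4a1, which fell between 1.43-fold and 1.77-fold, whereas Fos, Fosb, Jun, Junb, Egr2 and Ier2 were not called. Over all probe sets 11.0% were called lower and 12.8% higher. The median change of the 10 members was -0.21, beside 0.04 over all probe sets, and 8 members had the lower mean in unloaded muscle. The members were chosen with earlier results of these data known, so the values over all probe sets do not test the set. At an unadjusted p under 0.05, limma put 6 members lower (also Junb and Ier2) and 1 higher (Jun). The shares over all probe sets given above hold for the adjusted p. At an unadjusted p more probe sets pass, and that share was not taken. Counts at an unadjusted p, here and below, therefore cannot be set against a background. In RNA of whole muscle, fewer cells of a type and less RNA per cell cannot be told apart.

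**Figure D1:**
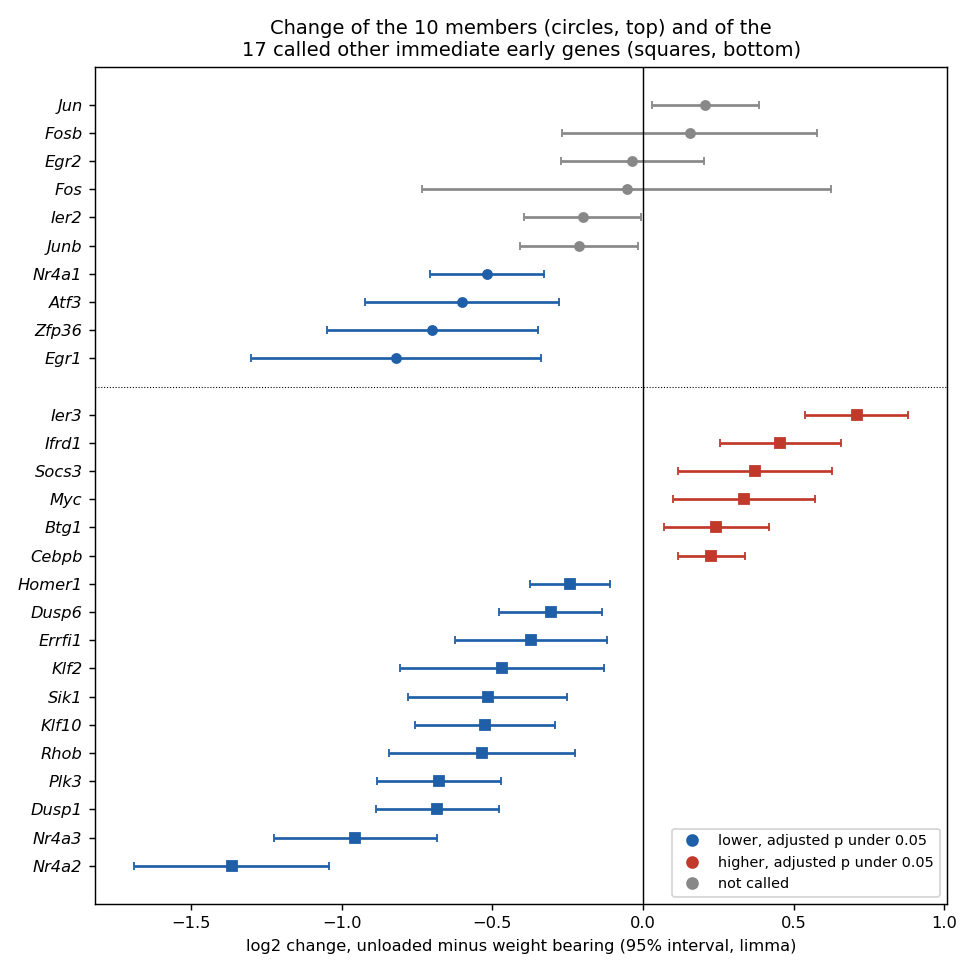
Log2 change (unloaded minus weight bearing, horizontal axis) with its 95% limma interval for the 10 members (circles) and the 17 called genes of a wider list of immediate early genes (squares). Egr1 had the lowest member value at -0.82 and Jun the highest at 0.21, and the interval of Fos, from -0.74 to 0.63, was the widest of the members.

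Fos, Fosb, Jun and Junb encode subunits of AP-1, the dimeric factor in which a Fos protein pairs with a Jun protein, or Jun proteins pair with each other. Fos itself read 7.18, 7.56, 6.74 and 6.84 on unloaded arrays 1 to 4 and 6.82, 7.80, 6.29 and 7.61 on weight bearing arrays 1 to 4. Both the highest and the lowest of the 8 values were weight bearing, and all 4 unloaded values lay between them. The change was -0.05 (95% interval -0.74 to 0.63, limma adjusted p = 0.912). That interval also holds the falls of Zfp36, Atf3 and Nr4a1, so these arrays do not tell such a fall of Fos from none. Fosb, a Fos paralog with a truncated splice form that builds up under repeated stimulation, read 6.46, 6.98, 6.13 and 6.76 when unloaded and 6.22, 6.46, 6.16 and 6.87 when weight bearing. The groups overlapped over nearly their whole range, with a change of 0.15 (95% interval -0.27 to 0.58, limma adjusted p = 0.581).

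Jun was the member nearest to a rise. It read 9.99, 9.81, 9.85 and 9.91 on the unloaded arrays and 9.67, 9.91, 9.58 and 9.56 on the weight bearing arrays. Weight bearing array 2 lay among the unloaded values, and the other 3 lay below all of them. The change of 0.21 (95% interval 0.03 to 0.38) had an unadjusted p of 0.0258 in limma and an adjusted p of 0.0849. Without weight bearing array 2 it was 0.28, and the limma adjusted p was 0.0126. Junb, which often opposes Jun at shared promoters, ran the other way at 6.32, 6.44, 6.27 and 6.45 when unloaded and 6.57, 6.73, 6.32 and 6.70 when weight bearing. Here weight bearing array 3 lay within the unloaded range. The change was -0.21 (95% interval -0.41 to -0.02, limma adjusted p = 0.106), and without that array it was -0.30 with a limma adjusted p of 0.0134.

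Among 11 other AP-1 and small Maf genes that were measured, 2 were lower and 0 higher, and the median change was 0.11. At an unadjusted p under 0.05, limma put 2 higher and 2 lower. Jund, the Jun gene that resting cells express steadily, read 8.08, 8.08, 7.98 and 8.04 when unloaded and 8.37, 8.47, 8.28 and 8.22 when weight bearing. Its groups did not overlap, and it fell 1.22-fold (limma adjusted p = 0.00696). Fosl2 (Fra-2) was 1.19-fold lower with overlapping groups (limma adjusted p = 0.0359), and its adjusted p reached 0.0948 among the fits that left out unloaded array 1, 2 or 4 or weight bearing array 1, 2 or 4, none of which called it. Atf7 is not analysed here.

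Egr1 and Egr2 are zinc finger factors that bind GC-rich sites, Egr1 being a main target of serum response factor. Egr1 read 8.01, 8.53, 7.75 and 8.48 on unloaded arrays 1 to 4 and 8.99, 9.40, 8.45 and 9.21 on weight bearing arrays 1 to 4. Weight bearing array 3, the lowest of its group, fell below unloaded arrays 2 and 4, and the other 3 stood above every unloaded array. The means were 8.19 ± 0.38 and 9.01 ± 0.41 (SD, n = 4 per group). Egr1 was 1.77-fold lower in unloaded muscle (95% interval 1.27 to 2.47, limma adjusted p = 0.0215). This was the greatest fall of a member and the call least secure of the 4, since the limma adjusted p lay between 0.0511 and 0.0567 without unloaded array 1 or 3 or weight bearing array 2 or 4.

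Egr2, best known for the myelin programme of Schwann cells, gave 6.09, 6.07, 6.18 and 6.03 when unloaded and 6.11, 6.46, 5.85 and 6.09 when weight bearing. The unloaded values lay within the weight bearing ones, and the change was -0.04 (95% interval -0.27 to 0.20, limma adjusted p = 0.826). Of the other EGR genes, Egr3 had a change of 0.00 (limma adjusted p = 0.962) and Egr4 of 0.13 (limma adjusted p = 0.157), both with overlapping groups. Nab1 and Nab2, corepressors of EGR factors, had changes of -0.16 and -0.14 and were not called. Among these 4 EGR genes Egr1 passed the test and the others did not.

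Atf3 is a stress-induced factor of the ATF/CREB family that mostly represses its targets. It read 7.06, 7.17, 6.77 and 7.02 in unloaded muscle and 7.40, 8.02, 7.71 and 7.30 in weight bearing muscle. Every unloaded array lay below every weight bearing array. The means were 7.01 ± 0.17 and 7.61 ± 0.32 (SD, n = 4 per group), a 1.52-fold fall (95% interval 1.21 to 1.90, limma adjusted p = 0.0145). Ier2, a small nuclear protein of the immediate early response, gave 5.83, 5.73, 5.73 and 5.70 when unloaded and 5.83, 6.04, 5.75 and 6.18 when weight bearing. Of the unloaded arrays, 3 lay below all weight bearing arrays and the remaining array, replicate 1, lay just above the lower 2 of them. The change was -0.20 (95% interval -0.40 to -0.01, limma adjusted p = 0.125), and without weight bearing array 3 it was -0.27 with a limma adjusted p of 0.0467. Ier2 and Egr2 lay at the 42.6th and 46.9th percentile of mean level among all probe sets, and the deposited values carry no detection call.

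Nr4a1 (Nur77) is an orphan nuclear receptor that is known in muscle for raising genes of glucose use and lipid metabolism after adrenergic stimulation and exercise. It read 10.21, 10.38, 10.52 and 10.30 on the unloaded arrays and 10.70, 10.81, 10.93 and 11.04 on the weight bearing arrays. The groups did not overlap. The means were 10.35 ± 0.13 and 10.87 ± 0.15 (SD, n = 4 per group), a 1.43-fold fall (95% interval 1.26 to 1.63, limma adjusted p = 0.00211). Nr4a1 kept its call under all 20 other settings, with a highest adjusted p of 0.0275.

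Both relatives of Nr4a1 fell further. Nr4a2 (Nurr1) read 6.45, 6.11, 6.42 and 6.32 when unloaded and 7.85, 7.89, 7.19 and 7.83 when weight bearing, a 2.58-fold fall (limma adjusted p = 0.000183). Nr4a3 (Nor1) read 6.45, 6.49, 6.52 and 6.77 when unloaded and 7.27, 7.68, 7.80 and 7.30 when weight bearing, a 1.94-fold fall (limma adjusted p = 0.000487). For all 3 receptors every unloaded array lay below every weight bearing array, and each call held with any single array left out. Non-overlap with the unloaded group lower was found for 12.0% of all probe sets, and among the 10 members for 2, Atf3 and Nr4a1.

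Zfp36 read 8.02, 8.37, 7.83 and 8.01 on the unloaded arrays and 8.65, 9.13, 8.36 and 8.89 on the weight bearing arrays. Only unloaded array 2 reached into the weight bearing range, just above weight bearing array 3. The means were 8.06 ± 0.23 and 8.76 ± 0.33 (SD, n = 4 per group), a 1.62-fold fall (95% interval 1.27 to 2.07, limma adjusted p = 0.0104). Its paralogs Zfp36l1 and Zfp36l2 had changes of 0.15 and -0.10 and were not called (limma adjusted p = 0.347 and 0.277). Of 12 transcripts that tristetraprolin is known to destabilise, 1 was higher and 1 lower, with a median change of 0.03. The higher transcript was Ier3, an immediate early gene that modulates survival signalling (1.64-fold, limma adjusted p = 0.000197). The lower transcript was Vegfa, the vascular growth factor (1.32-fold, limma adjusted p = 0.00145). The cytokines Tnf and Il6 both had a change of -0.03 at low levels. Ier3 and Vegfa had mean levels at percentiles 60.1 and 94.2 of all probe sets, and the other transcripts lay between percentiles 1.8 and 47.5. Such levels limit what the median and the lack of calls can show about these transcripts.

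The bases just before the start of a gene hold many of the sites through which immediate early genes are induced, and RefSeq windows of 250 bases before the start (build GRCm38.p6) were searched on both strands. Windows were at hand for 8 members, Egr1 and Ier2 being without an entry. The CArG box, the site of serum response factor, was found in Zfp36 and Egr2 and in 1.47% of all 32851 windows. An EGR site (GCGTGGGCG or GCGGGGGCG) was found in Zfp36, Nr4a1 and Fosb and in 3.06% of windows. The windows of the members held no CRE (TGACGTCA, 1.55% of windows), AP-1 site (TGANTCA, 6.75%) or NR4A site (AAAGGTCA, 1.34%), which says only that these letters are not in these windows. No 2 of the matches overlapped. The 4 members with a match are printed 5′ to 3′ on the strand of the gene, with the matched letters in capitals, because 2 of them fell in unloaded muscle and 2 were not called. The windows are chr7:28379229-28379478 (minus strand) for Zfp36, chr15:101266596-101266845 (plus strand) for Nr4a1, chr7:19310046-19310295 (minus strand) for Fosb and chr10:67537619-67537868 (plus strand) for Egr2, the last being 1 of 5 RefSeq starts of that gene.
Zfp36: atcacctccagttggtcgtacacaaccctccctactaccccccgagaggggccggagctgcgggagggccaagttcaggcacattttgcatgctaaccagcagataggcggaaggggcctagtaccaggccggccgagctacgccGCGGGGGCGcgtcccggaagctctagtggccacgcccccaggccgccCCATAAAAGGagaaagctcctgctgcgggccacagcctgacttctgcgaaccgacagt
Nr4a1: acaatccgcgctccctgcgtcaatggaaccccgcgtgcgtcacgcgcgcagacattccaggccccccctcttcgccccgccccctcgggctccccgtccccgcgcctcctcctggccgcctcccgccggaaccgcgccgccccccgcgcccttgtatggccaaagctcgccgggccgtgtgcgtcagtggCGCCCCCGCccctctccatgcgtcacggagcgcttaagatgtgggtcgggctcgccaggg
Fosb: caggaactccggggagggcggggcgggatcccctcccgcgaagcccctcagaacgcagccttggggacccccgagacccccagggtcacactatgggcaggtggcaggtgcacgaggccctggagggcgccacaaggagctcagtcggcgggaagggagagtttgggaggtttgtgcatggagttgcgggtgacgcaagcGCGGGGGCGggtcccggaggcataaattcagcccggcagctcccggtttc
Egr2: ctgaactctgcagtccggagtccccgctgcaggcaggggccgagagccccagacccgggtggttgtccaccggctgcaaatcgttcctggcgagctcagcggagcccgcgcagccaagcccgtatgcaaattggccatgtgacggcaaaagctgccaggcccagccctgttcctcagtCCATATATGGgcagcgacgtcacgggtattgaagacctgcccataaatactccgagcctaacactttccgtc
In Zfp36 the EGR match lay 105 to 97 bases and the CArG box 58 to 49 bases before the start. In Nr4a1 the EGR match lay on the opposite strand, 60 to 52 bases before the start, and in Fosb on the strand of the gene at 50 to 42 bases. The annotated bounds of Nr4a1, Fosb and Egr2 reach further upstream than the starts used, so the printed matches of these genes lay inside the annotated gene. The CArG box of Egr2 lay 72 to 63 bases before this start. Not every start of Egr2 had a match, since its window chr10:67535249-67535498 held none. Zfp36 (change -0.70) and Egr2 (-0.04) both held a CArG box. Nr4a1 (-0.52) and Fosb (0.15) both held an EGR match.

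**Figure D2:**
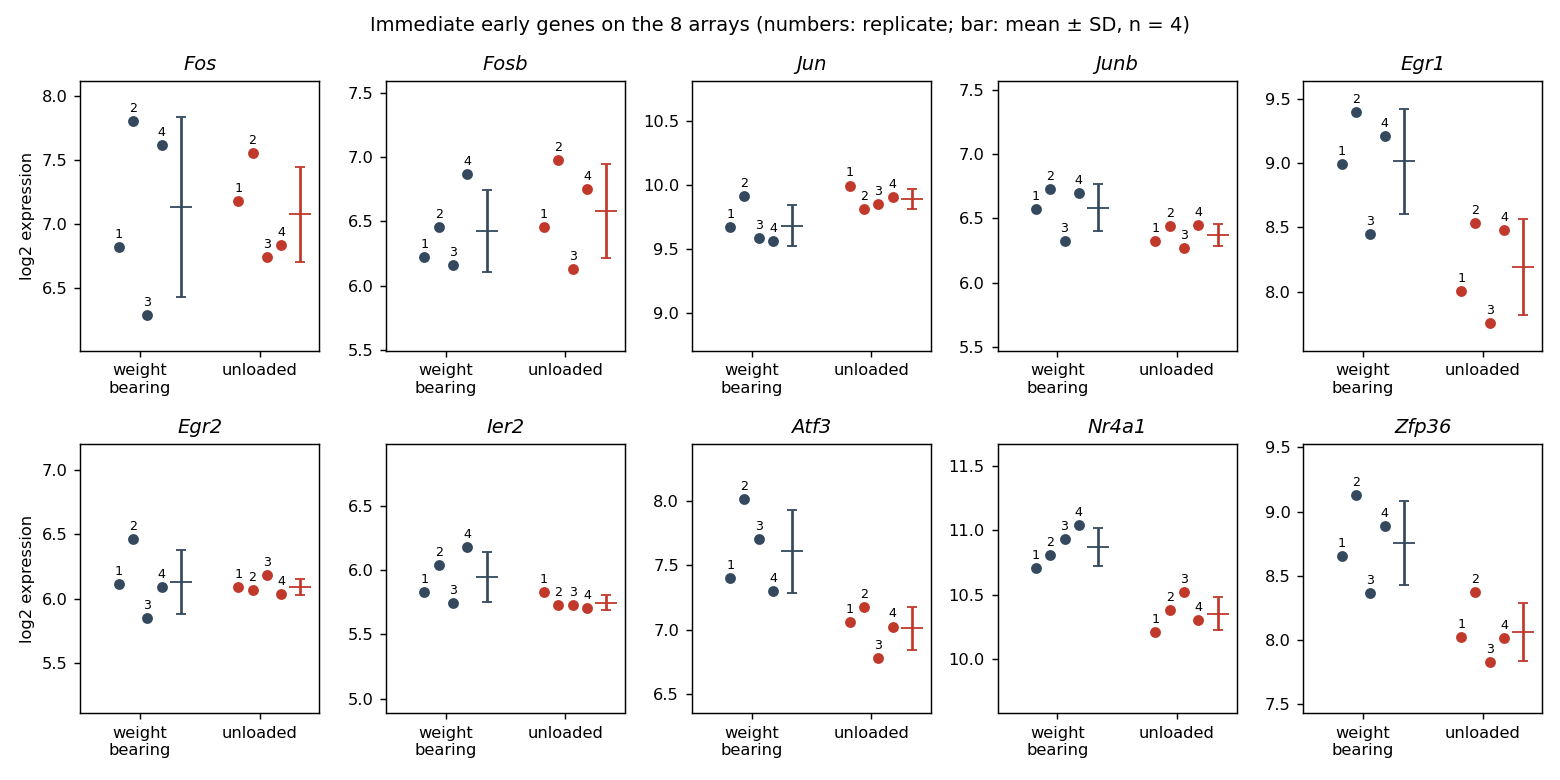
Log2 expression of each member on the 4 weight bearing (dark) and 4 unloaded (red) arrays, with the replicate number above each point and the mean ± SD beside each group. Each panel spans the same length of log2 scale. In Atf3 and Nr4a1 all unloaded points lie below all weight bearing points, and the weight bearing points of Fos spread from 6.29 to 7.80.

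Several members varied widely between the arrays of a group. The pooled SD within groups was 0.56 for Fos, 0.39 for Egr1 and 0.34 for Fosb, beside a median of 0.09 over all probe sets. Of the 10 members, 5 (Fos, Fosb, Egr1, Atf3 and Zfp36) lay above the 95th percentile of that SD, and Fos lay at the 99.9th. At the other end stood Jun and Nr4a1, at the 76.5th and 82.2nd percentile. For Fos the SD was 0.70 among the weight bearing and 0.37 among the unloaded arrays.

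Much of this spread was shared between genes on the same array. Weight bearing array 2 was the highest of its group in 7 members (Fos, Jun, Junb, Egr1, Egr2, Atf3 and Zfp36), and weight bearing array 3 was the lowest in 7 (Fos, Fosb, Junb, Egr1, Egr2, Ier2 and Zfp36). Averaged over the members, these arrays stood 0.26 above and 0.27 below their group mean, and weight bearing array 4 stood 0.13 above it. Among the unloaded arrays, array 2 was highest in 5 members (Fos, Fosb, Egr1, Atf3 and Zfp36) and array 3 lowest in 6 (Fos, Fosb, Junb, Egr1, Atf3 and Zfp36), with averages of 0.17 above and 0.16 below. Over all probe sets no array stood more than 0.02 from its group mean. The normalization of the arrays keeps that value small, so it does not show the pattern to be particular to the members. The pattern was not shared by all members, since Nr4a1 and Egr2 were highest on unloaded array 3, where 6 members were at their lowest, and Jun was lowest on unloaded array 2.

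**Figure D3:**
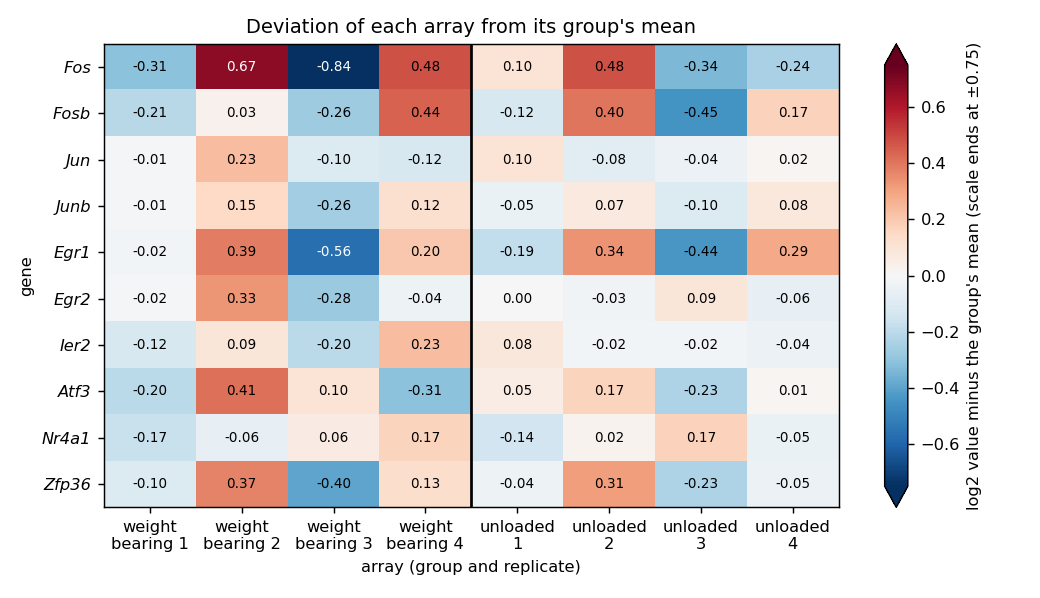
Deviation of each array (columns) from the mean of its own group for each member (rows), in log2 units, red above and blue below the mean. Weight bearing arrays 2 and 3 stand out in opposite directions, with Fos at 0.67 and -0.84, while the row of Nr4a1 stays within 0.17 of its mean.

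Some cell type markers also stood apart on these arrays. The mean level of 7 neutrophil markers was 5.39 on weight bearing array 2 and between 4.25 and 4.41 on the other weight bearing arrays. On the unloaded arrays it was between 4.54 and 4.82, and unloaded array 2 (4.63) did not stand out. These markers were dim, at percentiles 6.6 to 40.7 of mean level. Schwann cell markers (7.96, others 7.38 to 7.58) and pericyte and smooth muscle markers (8.76, others 8.45 to 8.54) were also highest of the weight bearing group on array 2. The mean level of 5 adipocyte markers was 8.03 both on weight bearing array 3 and on unloaded array 3, and between 8.43 and 9.12 on the other 6 arrays. None of the 12 neutrophil and adipocyte markers was called between the groups. The part of these cells in the spread of the immediate early genes was not tested.

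The genes most like a member were sought by the root mean square (RMS) difference between centred profiles over the 8 arrays, in log2 units. For Egr1 the nearest member was Zfp36 (0.18), and the nearest genes outside the list were Sfrp2 (0.18), Pi16 (0.22), Mest (0.24), Mrc1 (0.24) and Igsf10 (0.24). Mrc1 is the macrophage mannose receptor and Sfrp2 a secreted Wnt modulator. All 5 were called lower in unloaded muscle. The profiles span both groups, so the choice itself favours genes that differ between the groups as the member does. For Atf3 the nearest were Sbk2 (0.14), Adamts1 (0.14), Ifi211 (0.14), Oas2 (0.14) and Ms4a6c (0.15), with Zfp36 the nearest member at 0.25. Fos had no close match. Its nearest were Cyp2e1 (0.31), A530032D15Rik (0.32), Otud1 (0.32), Slc1a3 (0.32) and Ifitm6 (0.32), none of them called, and the nearest member was Fosb (0.37).

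**Figure D4:**
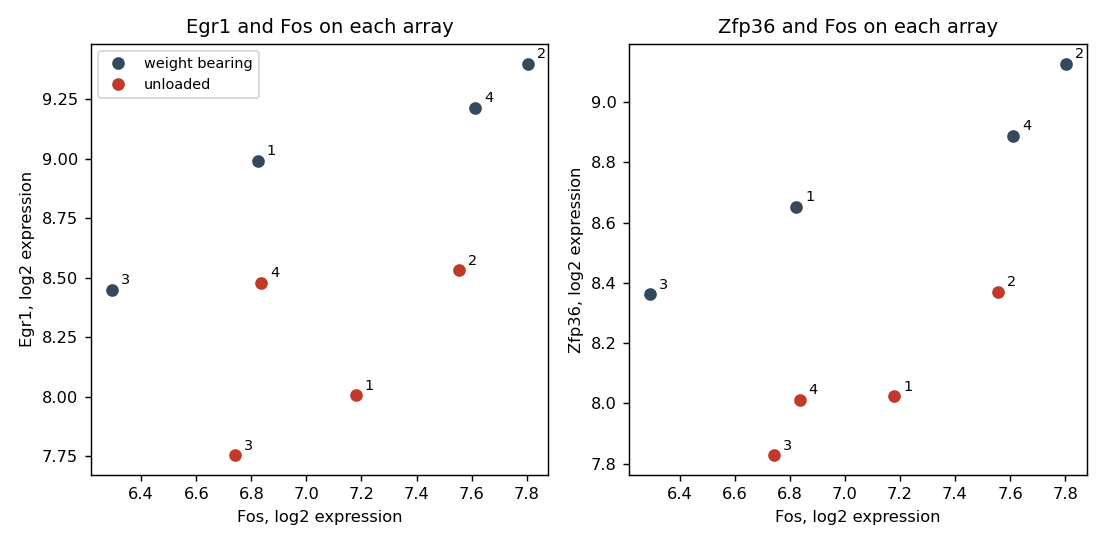
Log2 expression of Egr1 (left) and Zfp36 (right) on the vertical axis against Fos on the horizontal axis, a point for each array with its replicate number. In the right panel the groups are apart in Zfp36 minus Fos, which runs from 0.81 to 1.18 when unloaded and from 1.28 to 2.07 when weight bearing.

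A call for Egr1 and none for Fos does not show that they changed differently, so the difference between the changes of 2 members was tested within arrays. All 45 pairs of members were taken, the difference in log2 expression was formed on each array, and unloaded and weight bearing arrays were compared by a two-sided exact permutation test. With 4 arrays against 4 the smallest p is 0.0286. In 15 of the 45 pairs the groups did not overlap, which gives that smallest p, but after Benjamini-Hochberg adjustment over the 45 pairs 0 were under 0.05. The pairs share members, so the change of a gene enters several of them. The share of non-overlap among pairs of other genes was not taken. The lowest adjusted p was 0.0857, and 26 pairs at the smallest p would have been needed.

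Of those 15 pairs, 4 set Egr1 against Junb, Egr2, Fosb and Jun, and 5 set Zfp36 against Junb, Fos, Egr2, Fosb and Jun. The rest set Atf3 and Nr4a1 each against Egr2 and Jun, and Junb and Ier2 each against Jun. Egr1 minus Fosb lay between 1.55 and 1.72 on the unloaded arrays and between 2.29 and 2.94 on the weight bearing arrays, a difference in change of -0.98 (exact permutation p = 0.0286, adjusted p = 0.0857). The greatest difference was that of Egr1 and Jun, at -1.03. Egr1 minus Fos overlapped between the groups, with a difference in change of -0.77 (exact permutation p = 0.0857, adjusted p = 0.168). For Atf3 and Nr4a1 against Fos the differences were -0.55 and -0.46 (exact permutation p = 0.2 and 0.314).

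A wider list of 41 other immediate early genes held 11 that were lower and 6 that were higher, with a median change of 0.00. Apart from Nr4a2 and Nr4a3, the largest changes of called genes were those of Ier3, Dusp1, Plk3 and Rhob. Dusp1, the phosphatase that switches off MAP kinases, read 10.24, 10.38, 10.25 and 10.13 when unloaded and 10.78, 11.10, 10.76 and 11.10 when weight bearing, a 1.60-fold fall (limma adjusted p = 0.000685). Plk3, a stress-responsive kinase, was also 1.60-fold lower (limma adjusted p = 0.000715), with groups that did not overlap. Ier3 ran against them, at 7.32, 7.38, 7.22 and 7.31 when unloaded and 6.61, 6.41, 6.58 and 6.80 when weight bearing.

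Rhob, a small GTPase, was 1.45-fold lower (limma adjusted p = 0.0202), but its groups overlapped and the adjusted p reached 0.0548 among the fits without unloaded array 3 or 4 or weight bearing array 2 or 4, which did not call it. The other lower genes were Klf2, Klf10, Dusp6, Sik1, Errfi1 and Homer1, and the other higher genes were Btg1, Myc, Ifrd1, Cebpb and Socs3. Of these, Klf10 (-0.53), Sik1 (-0.52), Dusp6 (-0.31), Homer1 (-0.24), Ifrd1 (0.46) and Cebpb (0.23) were called with any array left out. With single arrays left out the list had 8 to 15 lower and 3 to 6 higher genes, the count of 3 coming without weight bearing array 1. The remaining 24 of the 41 were not called.

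**Figure D5:**
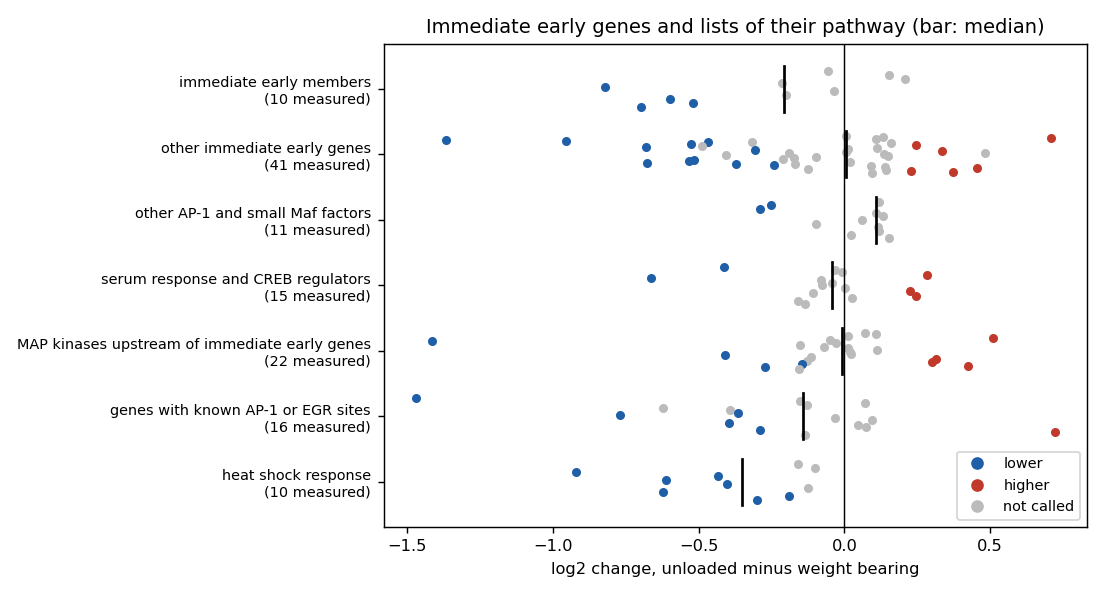
Difference between the group means, in log2 units and negative where unloaded muscle was lower, for every measured gene of 7 lists, blue where called lower, red where called higher and grey where not called, with a bar at the median of each list. The medians run from -0.35 for the heat shock genes to 0.11 for the other AP-1 and small Maf factors, and the members have theirs at -0.21.

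Upstream of these genes stand serum response factor, CREB and their partners, of which 15 were measured, 2 lower and 3 higher, with a median change of -0.04. Srf itself read 9.03, 9.06, 9.08 and 9.08 when unloaded and 9.48, 9.43, 9.52 and 9.49 when weight bearing, with no overlap and a 1.33-fold fall (limma adjusted p = 0.000178). Mrtfa, the actin-sensing cofactor of serum response factor, was 1.58-fold lower (limma adjusted p = 0.000347), also with no overlap. Elk4, a ternary complex factor that carries the MAP kinase signal to the same sites, was 1.22-fold higher (limma adjusted p = 0.00244). The CREB coactivators Crebbp and Crtc2 were higher by 0.23 and 0.25 on the log2 scale, and Creb1 was not called (-0.04). The call of Crtc2 was lost without unloaded array 1 or 2 or weight bearing array 1 or 3, where its adjusted p reached 0.0588.

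Of 22 measured MAP kinase and calmodulin kinase genes 4 were lower and 4 higher, with a median change of -0.01. The greatest change was a 2.67-fold fall of Map2k6, which activates p38 kinases (limma adjusted p = 4.77e-05), from 8.73, 8.58, 8.87 and 8.79 on the weight bearing arrays to 7.36, 7.20, 7.69 and 7.06 on the unloaded arrays. Map2k3, the other main activator of p38, was 1.43-fold higher (limma adjusted p = 0.00101). The p38 gene Mapk14 was 1.33-fold lower (limma adjusted p = 0.00134). Camk2b (0.43), Mapkapk3 (0.32) and Rps6ka5 (0.30), which encodes a kinase of CREB and chromatin, were higher. Of the relatives of Camk2b, Camk2d was lower (-0.27, limma adjusted p = 0.00768) and called with any array left out. Camk2a was also called lower (-0.15, limma adjusted p = 0.0458), but lost the call with each of the 8 arrays left out in turn, where its adjusted p was between 0.0523 and 0.103.

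Downstream, 16 genes with known AP-1 or EGR sites were measured, of which 5 were lower and 1 higher, with a median change of -0.14. Timp1, the metalloproteinase inhibitor and an AP-1 target, read 5.39, 5.60, 5.85 and 5.64 when unloaded and 6.99, 7.24, 6.97 and 7.17 when weight bearing, a 2.77-fold fall (limma adjusted p = 1.19e-05). Ccnd1 (cyclin D1) was 1.70-fold lower (limma adjusted p = 0.000229). Thbs1, which encodes the matrix protein thrombospondin, was 1.65-fold higher (limma adjusted p = 0.00582). Vegfa, Cd44 and Tgfb1 had changes of -0.40, -0.37 and -0.29. The call of Cd44 was lost without unloaded array 2 or weight bearing array 1 or 2, its adjusted p reaching 0.0544.

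Other groups moved beside the members. Heat shock genes, which tissue stress also induces, had 7 of 10 lower and 0 higher (8 lower and 0 higher at an unadjusted p in limma), with a median change of -0.35, and their mean level was 8.95 to 9.06 on the unloaded and 9.29 to 9.47 on the weight bearing arrays. The greatest fall was that of Hsph1, at 1.90-fold (limma adjusted p = 0.000161). Dnajb1, whose fall was not the next in size, was 1.35-fold lower (limma adjusted p = 0.000757). Macrophage markers had 6 of 9 lower, with mean levels of 6.87 to 7.04 and 7.25 to 7.52, and fibroblast markers 6 of 9, with 8.65 to 8.78 and 9.51 to 9.78. Endothelial markers had 2 of 8 lower and pericyte and smooth muscle markers 1 of 8, while satellite cell markers had 2 of 7 higher. Markers of neutrophils, lymphocytes, Schwann cells, adipocytes and red cells had 0 calls in limma, and at an unadjusted p 1, 2, 0, 0 and 1 of them were higher. The 10 skeletal muscle markers had mean levels between 12.63 and 12.73 on all 8 arrays, where the array medians lay between 6.28 and 6.33, with 3 lower and 1 higher. The part of these cells and of heat shock in the falls of Egr1, Zfp36, Atf3 and Nr4a1 was not tested.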

How the data were processed

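The authors hybridised 8 independent RNA samples to 8 arrays and deposited log2 values per probe set, made by robust multi-array analysis (RMA) with a Brainarray custom probe set definition. The sources used here give neither the release and genome build of that definition nor the RMA version. All 8 columns were used and 0 left unused. Symbols came from the platform annotation, 18786 probe sets having 1 symbol, 6 several and 2420 none, and a gene with several probe sets was represented by the brightest. The groups were tested two-sided with limma 3.58.1 (lmFit and eBayes) in R 4.3.3 on the values as deposited, unfiltered, with Benjamini-Hochberg adjustment over 21212 probe sets. Other steps used Python 3.11.15, pandas 2.3.3, numpy 2.4.6 and matplotlib 3.10.9. The fit was tested on simulated data.

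The members and gene lists were chosen with earlier results of these data known. Named were the members, up to 6 called genes of largest change per list (the 2 of smallest p where none was called) and the 5 genes most like Fos, Egr1 and Atf3. Of the heat shock genes under this rule only Hsph1 and Dnajb1 are named. Egr3, Egr4, Nab1, Nab2, Zfp36l1, Zfp36l2, Tnf, Il6, Creb1, Camk2a, Camk2d and the remaining called genes of the wider list were added as family, partners or full counts after values were seen. The 20 other settings were the methods' t-test (unequal variances), an equal-variance t-test, trend and robust variance, array weights, unadjusted p, a change of at least 1.2-fold, quantile normalization, array medians at 0, probe sets without the dimmest 25% or 50%, mean of several probe sets, the replicate number as a block, and each array left out. The number of arrays limits the precision. Some genes of the lists are not reported here.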

Additional observations from a re-analysis of the deposited data

Results flagged for a closer look

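The 74 genes named in the text gave 148 sets of 4 values (1 per gene and group). In 7 of these sets an array lay far from the others, where about 1 set in 20 would by chance. Nr4a2 stood at 7.194 on weight bearing array 3 and between 7.83 and 7.89 on the other weight bearing arrays, and its fall in unloaded muscle was called with or without that array. Mapkapk3 stood at 9.453 on unloaded array 3 and between 9.62 and 9.64 on the other unloaded arrays, and its rise was called with or without it. Egr4 was at 5.826 on unloaded array 1 (others 6.01 to 6.03), and Nab1 at 7.285 on unloaded array 2 (others 7.45 to 7.46). Of the genes with profiles most like a member, Slc1a3 was at 6.182 on unloaded array 3 (others 6.49 to 6.54), Adamts1 at 7.786 on the same array (others 8.04 to 8.08), and Oas2 at 6.745 on weight bearing array 2 (others 6.33 to 6.39).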

How the results depend on the processing

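Under the 20 other settings no called member changed direction. Of the members, 4 were lower in the main analysis and 1 (Nr4a1) with either the equal-variance t-test or the methods' t-test, where Atf3 and Zfp36 had adjusted p of at most 0.105 and 0.0789 and Egr1 of 0.106. With an intensity trend and robust variance Egr1 had 0.0604. With single arrays left out 3 to 6 members were lower, and 0 to 1 higher (Jun, without weight bearing array 2). By unadjusted p 1 was higher, and by either t-test 0. For the other immediate early genes, a list whose alternatives were chosen after seeing the data, the higher genes numbered 3 with the equal-variance t-test, 2 with the methods' t-test and 3 to 6 with arrays left out, and the lower genes 6 and 4 with those t-tests. The other AP-1 genes had 1 lower with at least 1.2-fold, quantile normalization, the replicate block or the equal-variance t-test, 0 with the methods' t-test, 1 to 2 with arrays left out, and 2 higher by unadjusted p. Without the dimmest 50% Egr2 and Ier2 were not tested. The labels name no pairing of same-numbered arrays. The correlations of their deviations were 0.02, 0.04, 0.12 and 0.10, and those of differently numbered arrays ran from -0.14 to 0.10. Arrays 2, 3 and 4 of each group correlated best with their own number, and array 1 of each group did not. Whether same-numbered arrays shared a batch was not tested. With the replicate block 5 members were lower (Junb was added), and 13 of the other immediate early genes. With 4 arrays per group the intervals of Fos and Fosb, whose spread is wide, leave their direction unknown.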
